A study of Mus musculus with 20 samples.

Results

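The Wnt pathway genes of the mouse striatum were described here in the 20 mice of a selection experiment. Membership was set by gene name, and the names were chosen with earlier results of these data known. It holds every gene of the deposited count tables named Wnt, Fzd, Sfrp, Dkk or Dvl with a number, plus Lrp5, Lrp6, Ctnnb1, Ctnnbip1, Gsk3a, Gsk3b, Axin1, Axin2, Apc, Apc2, Tcf7, Tcf7l1, Tcf7l2 and Lef1. These names matched 54 of 39179 genes. Of the 54, 43 reached more than 1 CPM (counts scaled to a library of fixed size) in at least 3 mice and were tested, among 14792 tested genes in all.

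RNA was sequenced from the bilateral striatum of male mice of about 6.5 months, from generation 17 of an experiment that started from an intercross of inbred strains. One line, High-Active, had been bred for distance traveled in the home cage, and the other, Control, was kept without selection. Mice received 0.25 mg/kg d-amphetamine or saline by intraperitoneal injection 2 hours before the tissue was taken, so that 5 mice of each line were in each treatment group. Each line was represented once, so selection, genetic drift and family cannot be told apart in a line difference. The parent labels showed 8 parent pairs behind the 10 Control mice and 5 behind the 10 High-Active mice, so some mice were full siblings. The study's methods place every mouse in a family of its own, and the parent labels were followed here.

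Wnt proteins are secreted lipid-modified ligands that bind Frizzled (Fzd) receptors together with the co-receptors Lrp5 and Lrp6. Without a ligand, a destruction complex of Axin, Apc and the kinases Gsk3a and Gsk3b marks beta-catenin, the product of Ctnnb1, for degradation. With a ligand, Dishevelled (Dvl) proteins inactivate that complex, and beta-catenin accumulates and joins the TCF/LEF factors in the nucleus to drive target genes. In the adult brain the pathway is known for roles in synapse formation and maintenance.

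Depth was 32388971 to 53710713 reads counted on genes per mouse, with a median of 41703853.5. Of the 10 sets of cell type markers examined, the 9 markers of medium spiny neurons, the principal striatal neurons, were all present in every library, with sums of 4300 to 7100 CPM. The tissue also carried RNA of neighbouring regions in amounts that varied between mice. The summed level of 10 cortical excitatory neuron markers ran from 298 to 835 CPM in Control mice and from 163 to 972 CPM in High-Active mice. The medians were 673 CPM in Control and 323 CPM in High-Active mice. The summed level of 10 thalamus and habenula markers was 157 to 206 CPM in all Control mice and 161 to 193 CPM in 6 High-Active mice. In the 4 remaining High-Active mice (197 and 871 after saline, 415 and 487 after amphetamine) it was 259 to 354 CPM. Between the lines 3 cortical markers were lower and 3 thalamic ones higher in High-Active mice at the threshold used below, and no marker of either list was at 0 in every mouse. Of the astrocyte markers 2 were higher and 1 lower, of the microglia markers 2 were lower, and of the choroid plexus and ependyma markers 1 was higher. Other marker sets also shifted in these 4 mice, but their values overlapped those of the other High-Active mice. Their septum markers summed to 116 to 180 CPM, against 40.9 to 106 CPM in Control and 44.7 to 126 CPM in the other High-Active mice. Their medium spiny neuron markers summed to 4300 to 4990 CPM. These were 5270 to 6720 CPM in Control and 4790 to 7100 CPM in the other High-Active mice. Oligodendrocyte markers summed to 5650 to 6990 CPM in the 4 mice, against 3770 to 6370 CPM in Control and 5250 to 6850 CPM in the other High-Active mice. Choroid plexus and ependyma markers reached 605, 846 and 922 CPM in 3 of the 4 mice and 746 CPM in 1 Control mouse. These 4 mice came from 4 different litters, and none of their 5 sequenced litter mates exceeded 193 CPM. They are called thalamus-rich below, a split made after seeing the data, named for the markers that set the split and not for the only ones that differ. The line difference of each called member is given with and without them.

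Intracellular parts of the pathway led the order of levels. Compared per kilobase of exon, Ctnnb1 had the highest level of the 43 members, 88.6 CPM per kilobase ± 4.24 (SD, n = 20 mice). Gsk3a followed at 67.0 ± 3.44, then Dkk3, a divergent Dickkopf relative with disputed Wnt function, at 29.0 ± 8.11. Gsk3b had 26.5 ± 1.95 and Apc 20.7 ± 2.29 on the same scale. The spreads of Dkk3 and Gsk3b overlapped, and those of Gsk3b and Apc did not. Ctnnbip1, which encodes a small protein that binds beta-catenin and blocks its contact with TCF factors, had 9.77 ± 1.7.

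The remaining destruction complex members were Apc2 at 14.1, Axin1 at 7.43 and Axin2, itself a common transcriptional target of the pathway, at 4.3 CPM per kilobase. Dvl1 stood at 17.0, above Dvl3 at 4.86 and Dvl2 at 3.85. All 12 receptors were tested. Lrp6 (5.38 ± 0.367) and Fzd2 (4.91 ± 0.525) led them with overlapping spreads, and Fzd1, Fzd7, Fzd3, Fzd9, Fzd5 and Fzd6 lay between 2.31 and 1.06. The lowest receptors were Fzd4 (0.929), Lrp5 (0.826), Fzd8 (0.51) and Fzd10 (0.273), the last passing 1 CPM in only 4 mice.

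Of 19 ligand genes, 11 were tested. Wnt7a (4.83 ± 0.632 CPM per kilobase), Wnt7b (4.62 ± 0.627) and Wnt2 (3.91 ± 0.974) led with overlapping spreads. Wnt4 had 1.74 and Wnt9a 1.13, while Wnt3 (0.894), Wnt5a (0.797), Wnt10a (0.67), Wnt8b (0.442), Wnt5b (0.368) and Wnt10b (0.198) lay lower. Sfrp1 was the highest secreted Frizzled-related antagonist at 3.74 ± 1.78, ahead of Sfrp5 (1.36), Sfrp2 (0.738) and Sfrp4 (0.273). Tcf7 (3.66) had the highest mean of the TCF/LEF genes. Tcf7l2 had 1.26 ± 0.874, with a spread wide enough to overlap both Tcf7l1 (0.992) and Lef1 (0.451). The 11 untested members were Wnt1, Wnt2b, Wnt3a, Wnt6, Wnt8a, Wnt9b, Wnt11, Wnt16, Dkk1, Dkk2 and Dkk4, with median counts of 0 to 24.5 reads per mouse. None of these was at 0 in every mouse.

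**Figure D1:**
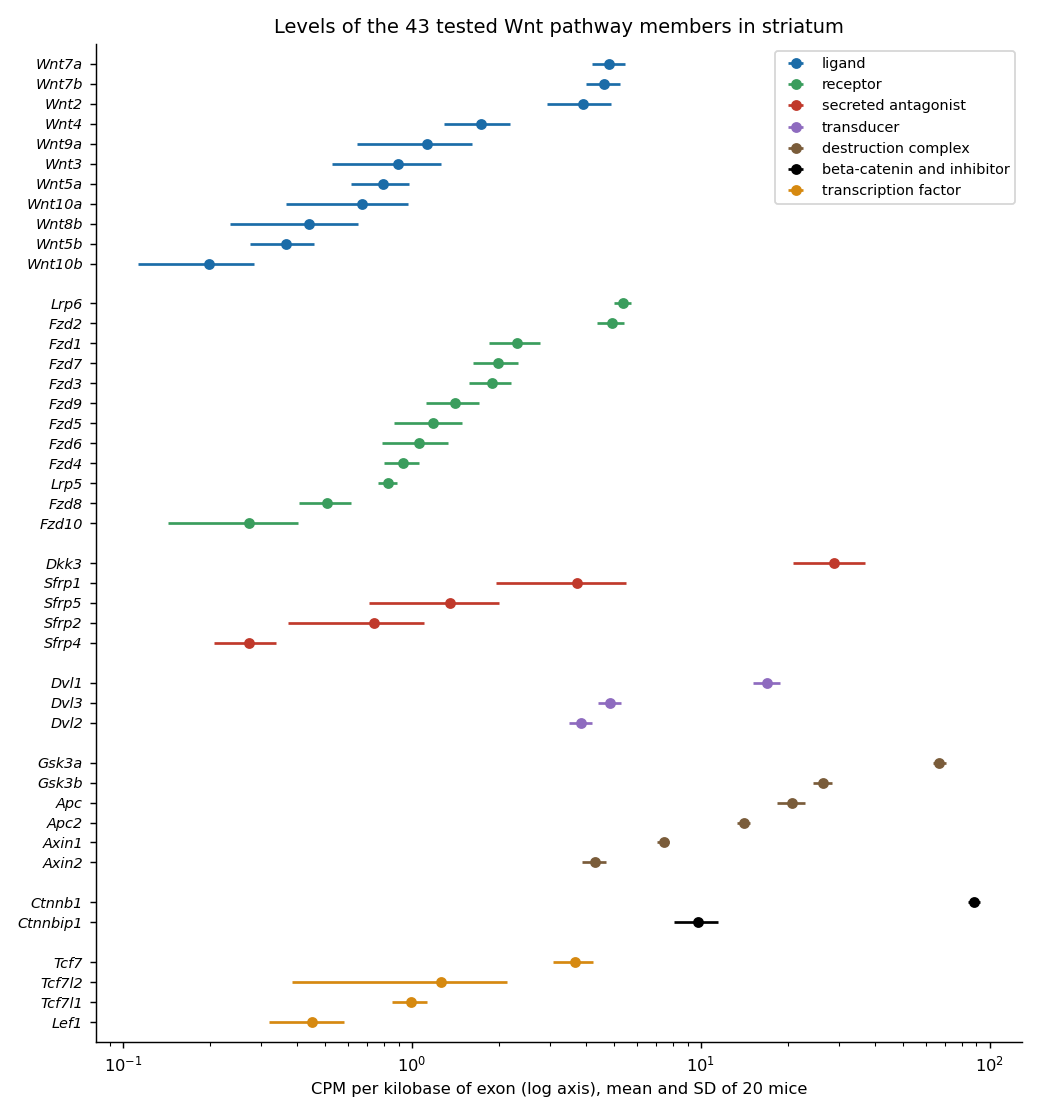
Levels of the 43 tested members in CPM per kilobase of exon on a log axis, grouped by role; points are means and bars SDs of 20 mice. Ctnnb1 at 88.6 and Gsk3a at 67.0 lie above all ligands, whose highest mean is 4.83 for Wnt7a.

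The first comparison asked which members differed between the lines, averaged over saline and amphetamine. At a false discovery rate (FDR) under 0.1, 7 of the 43 tested members (16.3%) were called, beside 14.5% of all tested genes. Ctnnbip1, Sfrp1, Fzd7, Wnt3, Sfrp2 and Tcf7l2 were higher in High-Active mice, and Gsk3b was lower. The share called was near the share over all genes. Those 6 higher members made up 14.0%, against 7.63% of all genes called higher, and the 1 lower member 2.33%, against 6.9%. The median log2 fold change was 0.033 over the members and -0.001 over all tested genes. With mice of the same parents summed into families first, 4 of the 43 tested members were called, beside 4.12% of all genes. They were Ctnnbip1, Fzd7, Sfrp1 and Wnt3, all among the 7. In none of the members did the values of the lines separate fully, which they did in 0.264% of all tested genes. Fold changes and adjusted p-values below are from edgeR's quasi-likelihood test with Benjamini-Hochberg adjustment over all 14792 genes.

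**Figure D2:**
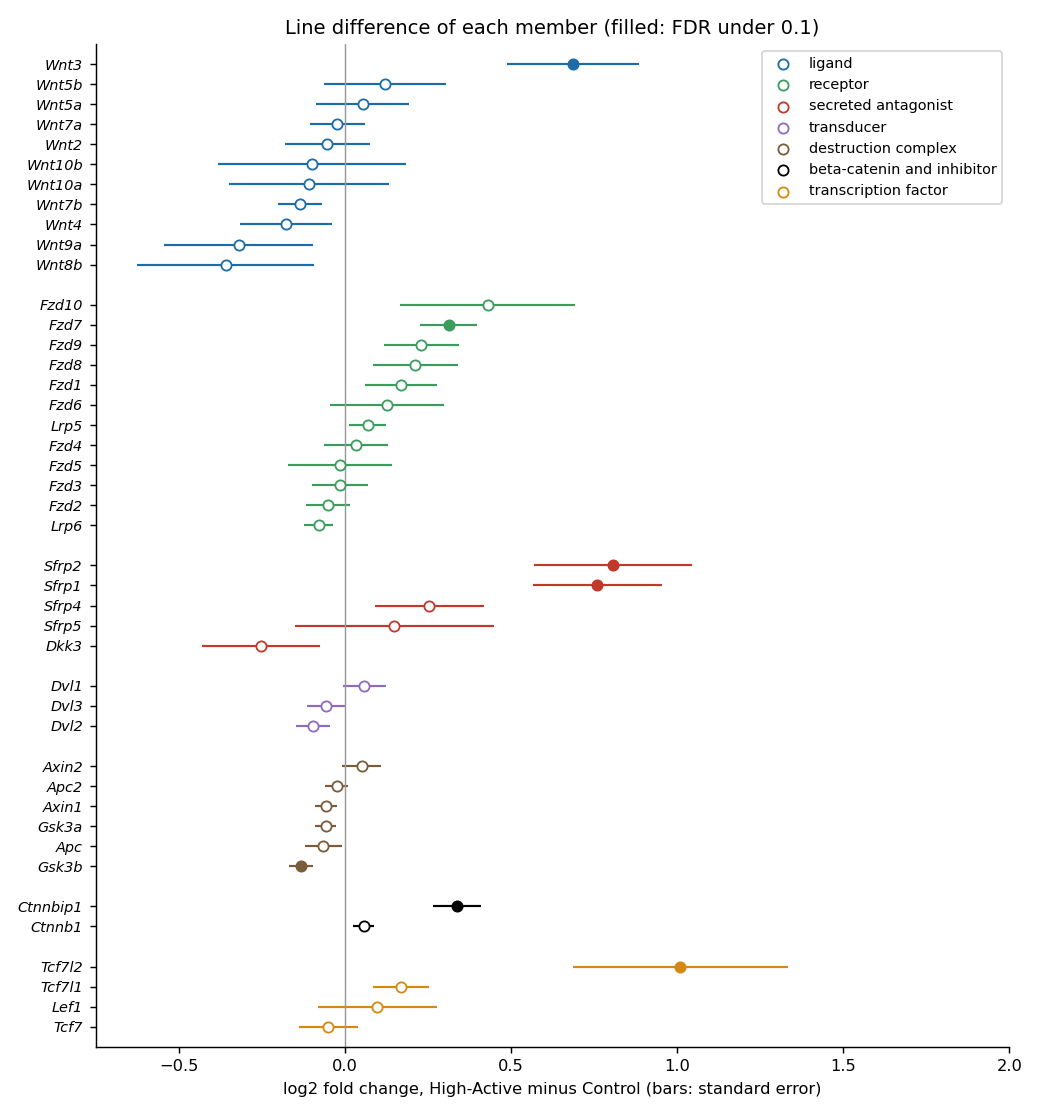
Log2 fold change of High-Active minus Control for each tested member, by role, with standard errors; filled points passed FDR 0.1. The 7 filled points are spread over 6 roles, 6 of them to the right of 0 and Gsk3b at -0.13 to the left.

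Among the ligands, Wnt3 was the 1 of 11 that was called. Wnt3 activates the beta-catenin branch. Its level was 1.15, 2.19 and 2.9 CPM in Control mice (lowest, median and highest of 10) and 1.79, 3.11 and 5.57 CPM in High-Active mice. It was above the highest Control value in 7 of 10 High-Active mice, and the remaining 3 lay within the Control range. The log2 fold change was 0.69 (SE 0.20, adjusted p = 0.0432), a ratio of 1.61. The thalamus-rich mice had 3.53 to 5.57 CPM and the other High-Active mice 1.79 to 3.2 CPM. Without the thalamus-rich mice the log2 fold change was 0.31 (adjusted p = 0.435). The other 10 ligands lay between -0.359 and 0.121 on the log2 scale.

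Among the receptors, Fzd7, a Frizzled known from stem cells, was the 1 of 12 that was called. Its level was 7.03, 7.56 and 9.52 CPM in Control mice and 7.11, 10.2 and 11.9 CPM in High-Active mice. It topped the Control range in 7 of the 10 High-Active mice. Its log2 fold change was 0.31 (SE 0.09, adjusted p = 0.0345). Its values in the thalamus-rich mice, 9.96 to 11.4 CPM, lay inside the range of the other High-Active mice, 7.11 to 11.9 CPM. With those 4 mice left out the estimate was 0.25 (adjusted p = 0.23). The other 11 receptors did not pass, among them Fzd9 at 0.23 (adjusted p = 0.198).

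Of the secreted antagonists, Sfrp1 and Sfrp2 were called and Sfrp4, Sfrp5 and Dkk3 were not. Sfrp proteins carry a Frizzled-like domain that binds Wnt ligands outside the cell. Sfrp1 had 9.38, 11.8 and 15.6 CPM in Control mice and 10.1, 20.3 and 41.9 CPM in High-Active mice. Sfrp1 topped the Control range in 8 High-Active mice, and mice 192 and 499 were inside that range. Between the lines the log2 fold change was 0.76 (SE 0.19, adjusted p = 0.0238), a ratio of 1.69. Thalamus-rich mice had 15.8 to 23.4 CPM and the other High-Active mice 10.1 to 41.9 CPM. Without the thalamus-rich mice the estimate was 0.85 (adjusted p = 0.0888), so Sfrp1 was as large without them. With a cortical marker score in the model it was 0.94 (adjusted p = 0.0429), with a thalamic score 0.90 (adjusted p = 0.0264), and with an oligodendrocyte score 0.70 (adjusted p = 0.13).

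Sfrp2 had 0.593, 0.955 and 2.35 CPM in Control mice and 1.38, 1.61 and 3.39 CPM in High-Active mice. All 10 High-Active mice exceeded the Control median, but only 3 exceeded the highest Control mouse. The log2 fold change was 0.81 (SE 0.24, adjusted p = 0.0462). The thalamus-rich mice had 1.78 to 3.39 CPM, above the 1.38 to 1.72 CPM of the other High-Active mice. Without them the log2 fold change was 0.39 (adjusted p = 0.437).

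In the destruction complex Gsk3b, the kinase that phosphorylates beta-catenin, was the 1 of 6 that was called, and the 1 called member that was lower in High-Active mice. Its level was 251, 274 and 290 CPM in Control mice and 226, 246 and 276 CPM in High-Active mice. In 6 High-Active mice Gsk3b was under the lowest Control value, and 4 were inside the Control range. This gave a log2 fold change of -0.13 (SE 0.04, adjusted p = 0.0328), a change of -8.74%. The thalamus-rich mice had 226 to 253 CPM and the other High-Active mice 240 to 276 CPM. Without them the log2 fold change was -0.08 (adjusted p = 0.25). With families summed the Gsk3b estimate was -0.12 (adjusted p = 0.127). The study described Gsk3b expression in these samples as similar in the lines, and its own edgeR fit called fewer genes than this one. Within saline mice the log2 fold change of Gsk3b here was -0.11 (adjusted p = 0.274), and within amphetamine mice -0.15 (adjusted p = 0.203). Gsk3a, the second kinase, differed by -0.06 (adjusted p = 0.253), and Apc, Apc2, Axin1 and Axin2 lay between -0.065 and 0.05. None of the 3 Dvl genes passed.

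Ctnnb1 was not called. Its level was 401, 459 and 469 CPM in Control mice and 445, 466 and 511 CPM in High-Active mice, with a log2 fold change of 0.06 (SE 0.03, adjusted p = 0.285) and 0.02 (adjusted p = 0.773) without the thalamus-rich mice. Ctnnbip1, its inhibitor, gave the smallest p of the members. It was among the genes that the study had named from these same samples, so its place is no independent evidence. Ctnnbip1 had 21.0, 23.9 and 29.2 CPM in Control mice and 25.2, 30.0 and 36.0 CPM in High-Active mice. In 7 High-Active mice, or all but 192, 499 and 886, it lay at or above the highest Control mouse. The log2 fold change was 0.34 (SE 0.07, adjusted p = 0.00971), an increase of 26.3%. The thalamus-rich mice had 31.1 to 36.0 CPM and the other High-Active mice 25.2 to 30.5 CPM. Without the thalamus-rich mice the log2 fold change was 0.20 (SE 0.06, adjusted p = 0.12). With a thalamic marker score in the model it was 0.22 (adjusted p = 0.0841), and with a cortical score 0.26 (adjusted p = 0.137). It was 0.24 with an oligodendrocyte score (adjusted p = 0.106) and 0.21 with the cortical and thalamic scores together (adjusted p = 0.185).

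Among the TCF/LEF factors Tcf7l2, a beta-catenin partner that also marks thalamic neurons, was the 1 of 4 that was called. It had 4.2, 6.55 and 12.7 CPM in Control mice and 5.13, 11.1 and 30.5 CPM in High-Active mice. Only the 4 thalamus-rich mice, at 16.8 to 30.5 CPM, exceeded the highest Control mouse, and the other 6 High-Active mice had 5.13 to 11.9 CPM. The log2 fold change was 1.01 (SE 0.32, adjusted p = 0.0604). It was 0.16 (adjusted p = 0.784) without those mice and 0.14 (adjusted p = 0.658) with a thalamic marker score. Leaving out single mice also ended the call for each of 411, 883, 415, 487, 197 and 871 (adjusted p of 0.102 to 0.123).

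**Figure D3:**
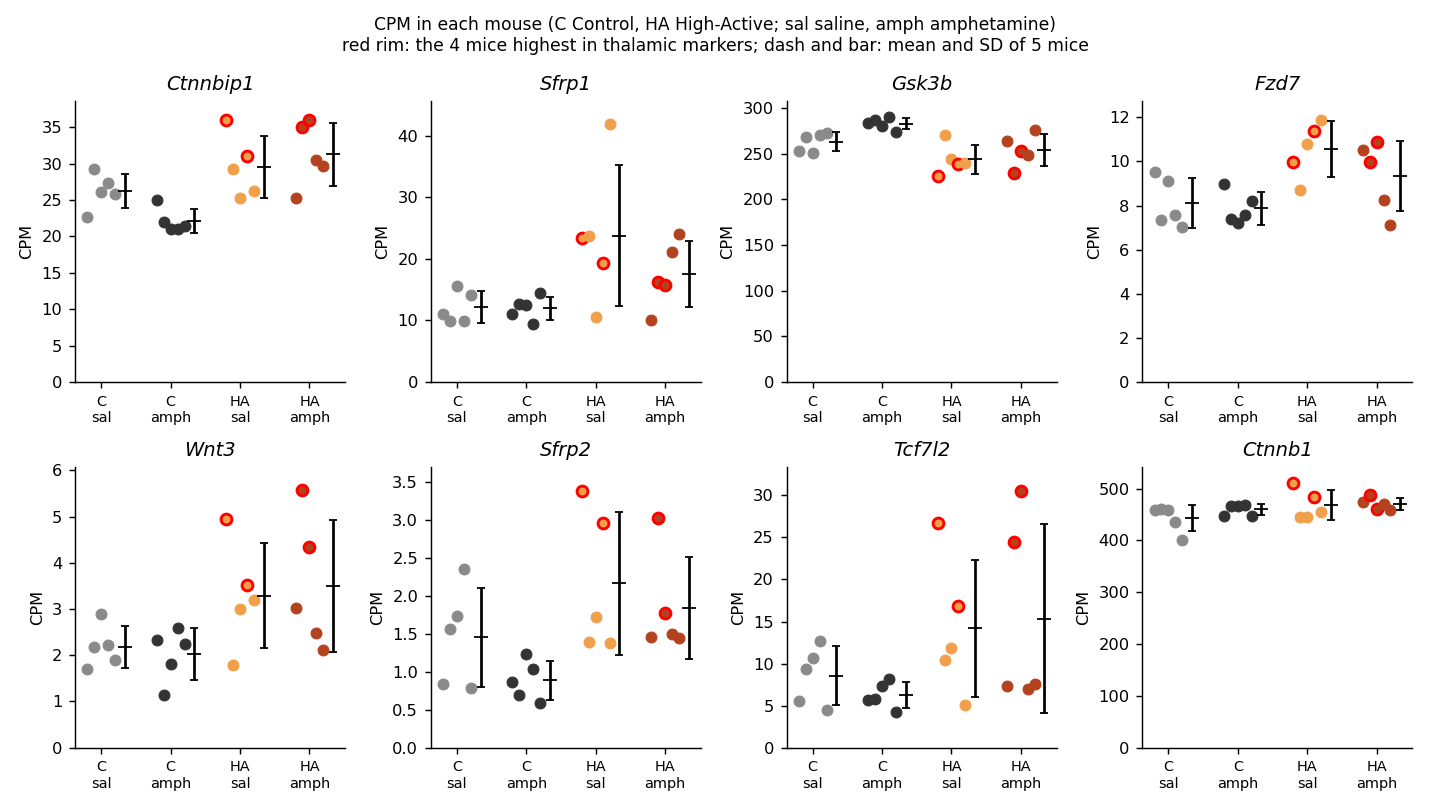
CPM of the 7 called members and Ctnnb1 in each of the 20 mice, by group, with means and SDs of 5 mice; a red rim marks the thalamus-rich mice. The red-rimmed mice hold the 4 highest Tcf7l2 values (16.8 to 30.5 CPM), while the highest Sfrp1 value (41.9 CPM) belongs to a mouse without one.

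Several members tracked the thalamic markers across the 20 mice, which share their libraries with those markers. The correlation of log2 CPM with the mean log2 CPM of the markers was 0.947 for Tcf7l2, with 0.943 within Control and 0.94 within High-Active mice. It was 0.818 for Sfrp2 (0.842 and 0.868 within the lines). For Wnt3 it was 0.801 and for Ctnnbip1 0.722, where it was lower within Control mice (0.32 and 0.318) than within High-Active mice (0.876 and 0.768). For Fzd7 it was 0.495 (0.004 and 0.37 within the lines), for Sfrp1 0.101 (-0.227 and -0.281) and for Gsk3b -0.694 (-0.292 and -0.682). With the cortical marker score the correlation over all mice was -0.675 for Sfrp2, -0.611 for Tcf7l2, -0.502 for Ctnnbip1 and -0.447 for Wnt3. Within Control mice these were -0.863, -0.791, -0.714 and -0.467, and within High-Active mice -0.398, -0.391, -0.076 and -0.148. Fzd7 had -0.426, Sfrp1 -0.249 and Gsk3b 0.491 over all mice. In whole tissue, fewer cells of a type and less RNA per cell cannot be told apart. The part of the tissue content in the line difference was not tested. Oligodendrocyte markers also differed, with 2 of 6 higher in High-Active mice and sums of 3770 to 6370 CPM in Control and 5250 to 6990 CPM in High-Active mice. With an oligodendrocyte score in the model no member was called by edgeR (5 had an unadjusted p under 0.05), and 4.79% of all genes were. The share of all genes at that unadjusted p was not counted.

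**Figure D4:**
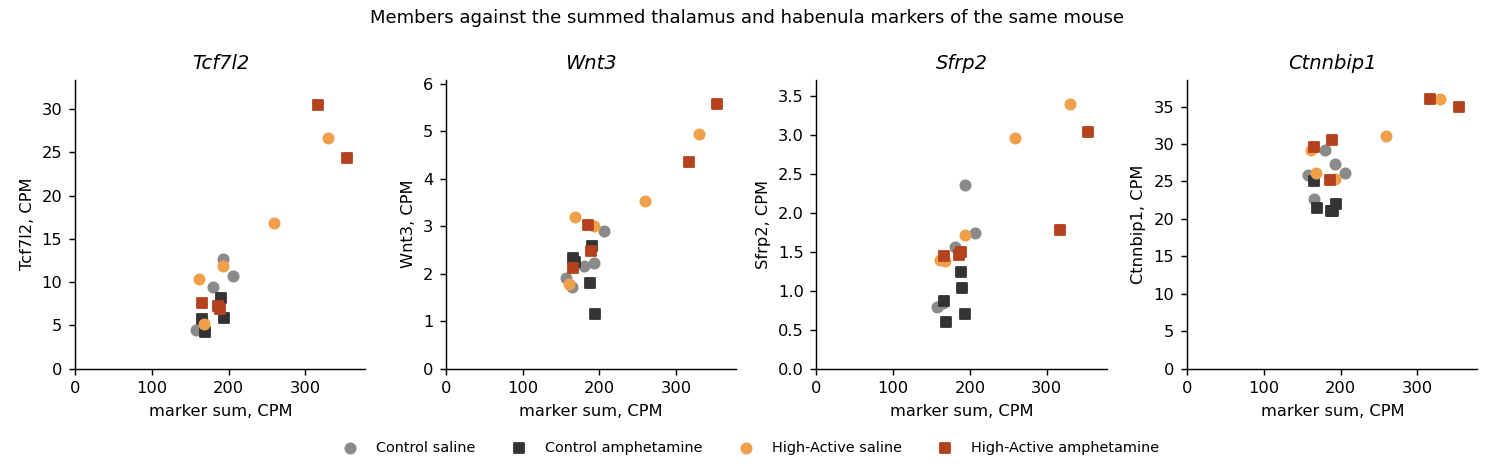
CPM of Tcf7l2, Wnt3, Sfrp2 and Ctnnbip1 in each mouse (y axis) against the summed CPM of the thalamus and habenula markers of that mouse (x axis), by group. Sums of 259 to 354 CPM separate the 4 thalamus-rich mice from the rest, which reach at most 206 CPM, and Tcf7l2 is at 16.8 to 30.5 CPM in them.

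The promoters of the called members were searched for CTTTGA, the core of the TCF/LEF binding motif, on both strands. Of the 54 members, 38 had windows in the RefSeq promoter table (GRCm38.p6), each covering 250 bases before to 50 after a transcription start. Of their 51 windows, 7 (13.7%) held the motif, against 16.0% of all 32851 windows. Among the 6 called members with a window, Gsk3b had a match and Ctnnbip1, Fzd7, Wnt3, Sfrp2 and Tcf7l2 had none. The windows of Gsk3b (chr16:38088751-38089050, plus strand), the member lower in High-Active mice, and of Ctnnbip1 (chr4:149517991-149518290, plus strand), the one with the smallest p, are shown 5′ to 3′, with the match (TCAAAG, the motif as it reads from the opposite strand) in capitals.
Gsk3b: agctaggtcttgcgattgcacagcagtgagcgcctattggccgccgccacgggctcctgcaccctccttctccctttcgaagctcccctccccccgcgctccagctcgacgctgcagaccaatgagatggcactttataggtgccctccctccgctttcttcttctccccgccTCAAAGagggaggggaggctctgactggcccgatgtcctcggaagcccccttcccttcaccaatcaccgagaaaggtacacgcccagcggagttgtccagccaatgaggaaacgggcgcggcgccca
Ctnnbip1: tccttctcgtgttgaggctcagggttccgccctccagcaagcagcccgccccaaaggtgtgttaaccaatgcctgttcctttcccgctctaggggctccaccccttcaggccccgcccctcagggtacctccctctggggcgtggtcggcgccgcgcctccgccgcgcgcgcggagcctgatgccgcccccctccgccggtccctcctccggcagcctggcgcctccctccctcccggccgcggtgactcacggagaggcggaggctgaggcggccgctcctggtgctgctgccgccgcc
Ctnnbip1 had a further window (chr4:149544867-149545166, plus strand), not shown, also without a match. The match in Gsk3b starts at base 174 of its window. It is a description of the letters and not of binding.

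The lines were then compared within each treatment. In saline-injected mice 1 of 43 members (2.33%) was called, beside 3.74% of all genes. That member was Sfrp1, with a log2 fold change of 0.97 (SE 0.27, adjusted p = 0.0791). The Control saline mice had 9.91, 9.92, 11.1, 14.1 and 15.6 CPM. The High-Active saline mice had 10.5, 19.4, 23.4, 23.7 and 41.9 CPM. Thus 4 of the 5 High-Active mice exceeded all Controls, and mouse 499 did not. Leaving out any one of 411, 448, 477, 883, 197, 483, 871 and 886 ended the call (adjusted p of 0.103 to 0.158), and without 886, the mouse at 41.9 CPM, the estimate was 0.67. Without the thalamus-rich mice it was 1.06 (adjusted p = 0.145).

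In amphetamine-injected mice 1 of 43 members was called, beside 1.3% of all genes. That member was Ctnnbip1, with a log2 fold change of 0.50 (SE 0.10, adjusted p = 0.0301). The Control amphetamine mice had 21.0, 21.0, 21.4, 22.0 and 25.0 CPM and the High-Active amphetamine mice 25.2, 29.6, 30.5, 35.0 and 36.0 CPM. The 2 groups did not overlap, although mice 369 (25.0 CPM) and 192 (25.2 CPM) nearly met. The share of all genes whose values separate between these 2 groups was not counted. The call held in each of the 20 fits that left out 1 mouse. Without the thalamus-rich mice the estimate was 0.37 (adjusted p = 0.172).

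The second question was whether amphetamine changed the members 2 hours after injection. At FDR 0.1 edgeR's quasi-likelihood test called 0 of 43 members and 0.0% of all genes. At an unadjusted p under 0.05 there were 7 members (16.3%), beside 12.5% of all genes. DESeq2 called 4 members (Apc, Wnt4, Wnt7b and Wnt9a) and 2.64% of all genes. The likelihood-ratio test with robust dispersions called 3 (Apc, Wnt4 and Wnt9a) and 3.1% of all genes. Limma-voom with family as a block called no member and 0.0% of all genes.

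Of these 7 members, 3 were ligands. Wnt9a had 1.6, 2.47 and 5.64 CPM in the 10 saline mice and 2.69, 4.19 and 6.84 CPM in the 10 amphetamine mice, a log2 fold change of 0.70 (SE 0.22, adjusted p = 0.222). All 10 amphetamine mice exceeded the saline median and 3 exceeded every saline mouse. Wnt4 had 3.38, 6.44 and 8.09 CPM after saline and 5.41, 8.15 and 11.6 CPM after amphetamine, a log2 fold change of 0.45 (SE 0.14, adjusted p = 0.216). Wnt7b, a ligand known from dendrite growth, had 17.3, 20.3 and 26.5 CPM after saline and 20.8, 24.2 and 28.9 CPM after amphetamine, a log2 fold change of 0.22 (SE 0.07, adjusted p = 0.215).

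The others were 2 receptors and 2 destruction complex members. Apc had 277, 307 and 367 CPM after saline and 293, 361 and 418 CPM after amphetamine, a log2 fold change of 0.19 (SE 0.06, adjusted p = 0.204). Gsk3b had 226, 252 and 273 CPM after saline and 229, 275 and 290 CPM after amphetamine, with 0.08 (SE 0.04, adjusted p = 0.359). Fzd3, a Frizzled of axon guidance, had 20.0, 22.0 and 28.4 CPM and then 20.1, 25.1 and 31.7 CPM, with 0.22 (SE 0.09, adjusted p = 0.293). Fzd9 was the one with a negative value, with 2.78, 3.34 and 4.95 CPM after saline, 2.18, 2.92 and 3.63 CPM after amphetamine, and -0.25 (SE 0.11, adjusted p = 0.364). The saline and amphetamine mice overlapped for all 7. In the 6 litters sequenced under both treatments, Wnt4 was higher after amphetamine in 5, Wnt9a, Wnt7b, Apc and Gsk3b in 4 each, Fzd3 in 3 and Fzd9 in 2. With the parent pair as a fixed block, a paired fit chosen after seeing the data, edgeR called none of the members and 0.00676% of all genes. There 1 member had an unadjusted p under 0.05, and the share of all genes at that p was not counted. In that fit Wnt4 was at 0.61 (SE 0.24, adjusted p = 0.976), and Fzd9 turned to 0.02 (SE 0.10, adjusted p = 0.999).

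The cortical marker sum varied with several of these members, and its part in their values was not tested beyond the fit given here. It was 298 to 832 CPM (median 444) in Control saline and 609 to 835 CPM (median 699) in Control amphetamine mice. In High-Active mice it was 163 to 342 CPM (median 191) after saline and 219 to 972 CPM (median 549) after amphetamine. The treatments thus overlapped in both lines, but the median was higher after amphetamine in each. Across the 20 mice the correlation with the cortical marker score was 0.916 for Wnt9a, 0.811 for Wnt7b, 0.702 for Wnt4, 0.687 for Apc, 0.491 for Gsk3b, 0.222 for Fzd3 and -0.525 for Fzd9. With that score in the model the log2 fold change for amphetamine was 0.07 for Wnt9a, 0.08 for Wnt7b, 0.24 for Wnt4, 0.10 for Apc, 0.08 for Gsk3b, 0.23 for Fzd3 and -0.21 for Fzd9 (adjusted p of 0.983 to 0.987).

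**Figure D5:**
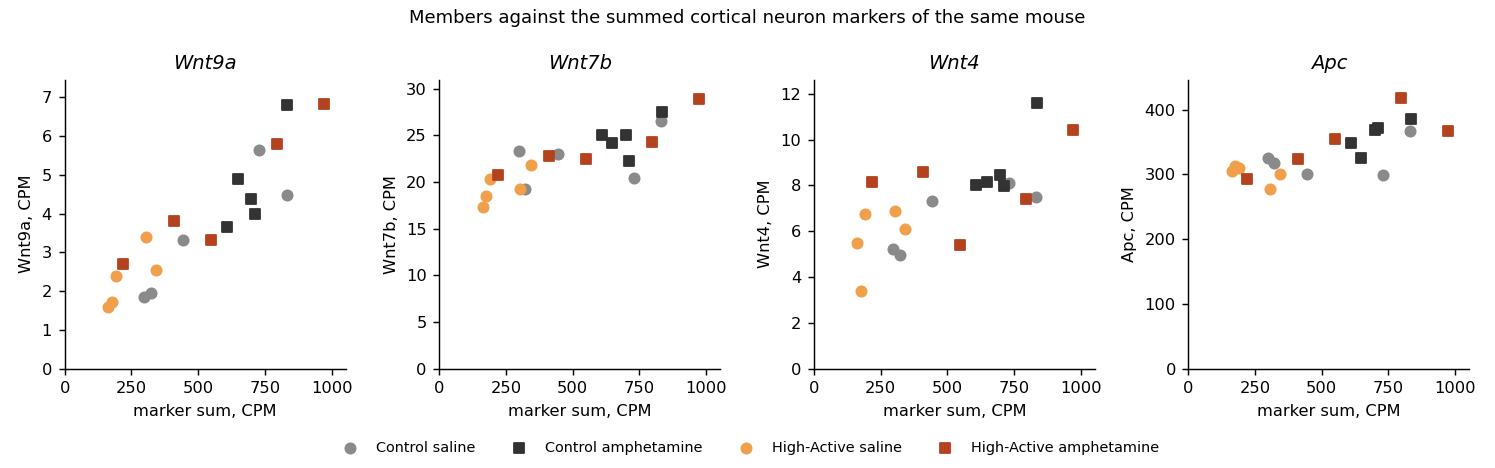
CPM of Wnt9a, Wnt7b, Wnt4 and Apc in each mouse (y axis) against the summed CPM of the cortical excitatory neuron markers of that mouse (x axis), by group. High-Active saline mice lie at marker sums of 163 to 342 CPM, and Wnt9a rises with the sum in both lines (correlations of 0.955 in Control and 0.945 in High-Active mice).

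The third question was whether the response to amphetamine differed between the lines. The quasi-likelihood test of edgeR called 0 of 43 members and 0.0% of all genes. DESeq2, the likelihood-ratio test and limma-voom called none of the members either. Of all genes they called 0.0%, 0.0406% and 0.0%, in that order. At an unadjusted p under 0.05 there were 2 members (4.65%), beside 2.97% of all genes. Wnt2 had 7.25, 7.58, 8.28, 8.43 and 9.0 CPM in Control saline mice and 7.23, 8.93, 10.2, 10.2 and 12.0 CPM in Control amphetamine mice. In High-Active mice it had 6.26, 9.17, 9.25, 11.9 and 14.7 CPM after saline and 5.65, 5.97, 7.77, 8.14 and 8.26 CPM after amphetamine. Most values thus lay higher after amphetamine in Control and lower in High-Active mice, with overlap in both lines. The interaction was -0.78 on the log2 scale (SE 0.25, adjusted p = 1.0). Wnt2 correlated with the cortical marker score at -0.721 within High-Active and 0.029 within Control mice. The part of cortical content in the Wnt2 values was not tested.

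Ctnnbip1 had an interaction of 0.33 (SE 0.14, adjusted p = 1.0). Its Control saline mice had 22.7, 25.8, 26.1, 27.3 and 29.2 CPM, mostly above the 21.0 to 25.0 CPM of Control amphetamine mice. Its High-Active saline mice had 25.3, 26.2, 29.2, 31.1 and 36.0 CPM, which overlapped the 25.2 to 36.0 CPM of High-Active amphetamine mice. The line difference of Ctnnbip1, called after amphetamine and not after saline, was therefore not shown to differ between the treatments.

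Other genes of the pathway were read from 7 lists covering ligand secretion, receptor turnover, planar cell polarity, destruction complex partners, nuclear and junction partners and transcriptional targets. Of 82 tested genes, 4 were higher and 5 lower in High-Active mice, or 11.0% beside the 14.5% of all genes, and none was called for amphetamine. Of 15 tested secretion genes and extracellular regulators, Apcdd1, a membrane inhibitor that is also on the list of targets, was at -0.32 (SE 0.11, adjusted p = 0.0724), and Rspo3, an R-spondin that strengthens Wnt signals, was at -0.36 (SE 0.13, adjusted p = 0.0808). Of 7 receptor turnover genes and alternative receptors, Ptk7 was at -0.24 (adjusted p = 0.0572). Of 11 planar cell polarity genes, Prickle2 was at -0.18 (adjusted p = 0.00788) and Daam2, a formin that binds Dishevelled, was at 0.27 (adjusted p = 0.0133).

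Of 20 destruction complex partners, Cxxc4, a Dishevelled-binding inhibitor, was at 0.21 (adjusted p = 0.0562). Among 17 nuclear partners, the corepressor Ctbp2 was at 0.35 (adjusted p = 0.0606) and Tbl1xr1 at -0.11 (adjusted p = 0.0939). Of 7 junction partners, N-cadherin, Cdh2, was at 0.13 (adjusted p = 0.0644). Of 11 transcriptional targets tested, Apcdd1 was the 1 that passed, and the median log2 fold change of the targets was 0.031. The 4 further genes that the study itself linked to the pathway, Dpysl5, Rassf8, Amotl2 and Tmem44, were all higher in High-Active mice, but they were chosen on these same samples and are no independent evidence of a direction.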

How the data were processed

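Per the labels and methods, striatal RNA libraries (TruSeq Stranded, paired-end) were aligned to GRCm38 with TopHat2 2.0.10 and Bowtie2 2.1.0, and the authors deposited raw read counts per Ensembl 75 gene from HTSeq 0.6.1, one table a mouse, without normalization. Summary lines naming no gene (16.0% to 17.5% of each table) were left out. The strand setting of the counting is not given in the sources used here. Groups came from the strain and treatment labels.

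Genes with more than 1 CPM in at least 3 mice were scaled by TMM and fitted with edgeR 4.0.16 in R 4.3.3 (quasi-likelihood test, a mean for each of 4 groups, all 20 mice). P-values were adjusted by Benjamini-Hochberg over all 14792 genes, with a threshold of 0.1. CPM are TMM-scaled, exon lengths are merged exons of GENCODE annotation on GRCm38, and the log2 CPM of correlations carry a prior count of 2. No pair of mice in a group agreed within sampling noise (lowest chi-square 18.4 per gene).

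Values were given for members called between the lines and Ctnnb1, and, for amphetamine and the interaction, for members with an unadjusted p under 0.05. Members, gene lists and markers were chosen with earlier results of these data known. Alternatives were other normalization, filters and tools (DESeq2 1.42.0, limma 3.58.1), family, tissue markers and leaving out mice. The pipeline was tested on simulated data.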

Additional observations from a re-analysis of the deposited data

Results flagged for a closer look

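In the 4 groups of 5 mice, values of 15 genes were examined for a mouse far from its group, 60 groups in all, of which chance alone flags about 1 in 20. There were 3 such values. Ctnnbip1 had 25.0 CPM in Control amphetamine mouse 369, against 21.0 to 22.0 CPM in the other 4 mice of that group. Sfrp2 had 3.03 CPM in High-Active amphetamine mouse 415, one of the thalamus-rich mice, against 1.45 to 1.78 CPM in the other 4. Wnt4 had 11.6 CPM in Control amphetamine mouse 407, against 7.99 to 8.46 CPM in the other 4.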

How the results depend on the processing

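Of the 7 members called between the lines, the same 7 were called with RLE scaling, 1 CPM in 5 mice and DESeq2 (14.5%, 14.4% and 19.0% of all genes called). The number was 8 without a low-count filter (7.25%) and with the likelihood-ratio test (15.3%), and 6 with limma-voom and family as a block (12.7%). It was 4 with families summed (4.12% of all genes called), 2 with a thalamic score (4.52%), 1 with a cortical score (2.72%), and, in fits chosen after seeing the data, 1 with both scores (2.85%), 1 without the thalamus-rich mice (3.89%) and 0 with an oligodendrocyte score (4.79%). No line difference of a named member turned direction. The amphetamine value of Fzd9 did, from -0.25 to 0.0225, with the parent pair as a fixed block. Sfrp1 was called in all of these fits of the line difference but the one with an oligodendrocyte score.

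In saline mice the number was 2 with DESeq2 (7.51% of all genes) and 0 with the block (3.43%), the cortical (0.291%), both (0.379%) and oligodendrocyte (2.12%) scores, and without the thalamus-rich mice (2.41%), with 3 to 7 members at an unadjusted p under 0.05 in these. In amphetamine mice it was 3 with DESeq2 (3.12%) and 0 with the thalamic (0.46%), both (0.507%) and oligodendrocyte (0.27%) scores and without the thalamus-rich mice (0.237%), with 3 to 7 at an unadjusted p under 0.05. The shares of all genes at that unadjusted p were not counted for these saline and amphetamine fits. For amphetamine it was 4 with DESeq2 (2.64%), 3 with the likelihood-ratio test (3.1%) and 2, Apc and Wnt9a, without the thalamus-rich mice (3.16%). For the interaction it was 0 in every fit (0.0% to 0.0406% of all genes). The cause of these changes was not tested.

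Across fits that each omitted 1 mouse, the count ranged from 6 to 8 between the lines (9.36% to 17.2% of all genes), from 0 to 2 in saline mice (1.29% to 4.58%) and from 0 to 2 for amphetamine (0.0% to 2.29%) (2, Apc and Wnt7b, without mouse 415), and was 1 in amphetamine mice (0.541% to 1.35%) and 0 for the interaction. Mouse numbers pair no groups, but parent pairs do. Pairing litter mates in the block of parent pairs gave 0 members for amphetamine and 0 for the interaction (0.00676% of all genes each).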
